A study of Papio anubis with 40 samples.

Results

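The fragments described here begin with GCCTGGG or GCCCGGG, run for 25 to 36 nt, and were listed in the series under the working name of 5′ fragments of the lysine tRNA with anticodon TTT (Lys-TTT). They were chosen by the first 8 characters of the fragment code, which spell the first 20 bases, and by length, and that rule uses no measured value. The rule found 126 of the 58587 fragments with a code, and these took 67486 of 130892201 counts, or 0.0516%. Of the 126, 111 carried T at base 4 (T-start, 44679 counts) and 15 carried C at base 4 (C-start, 22807 counts). All have G at base 7.

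Small RNA was sequenced from 0.5 mL of serum of 8 olive baboons (Papio anubis) at 5 visits, which gave 40 libraries, 1 for each animal and visit. The visits were months 3, 6, 9 and 15 after endometriosis was induced by inoculating menstrual tissue into the abdomen, and month 0, before that procedure. The labels give every animal as untreated, and no animals without the inoculation are among the samples. Time, ageing and lesion growth therefore cannot be told apart in any month comparison, and fewer releasing cells cannot be told apart from less RNA released per cell.

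Transfer RNAs carry amino acids to the ribosome, and nucleases such as angiogenin cut them in or near the anticodon loop, which releases 5′ and 3′ fragments. Fragments from the 5′ side are common in blood, where protein complexes and vesicles protect them. Lysine tRNAs exist with the anticodons TTT and CTT, which read the AAA and AAG codons, and the TTT form is also the primer with which HIV-1 starts reverse transcription. Bases 4 and 7 both lie in the 5′ strand of the acceptor stem, the helix that ends at the amino acid, so each pairs with a base on the 3′ side of the whole tRNA that these fragments do not contain.

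The sequences below are the deposited sequences of the most abundant members beside those of the most abundant Lys-TTT and Lys-CTT fragments in the same table. Capitals mark bases 4 and 7, and in the Lys-CTT fragment the bases that differ from the T-start sequence.
T-start, 31 nt: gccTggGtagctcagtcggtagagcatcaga
C-start, 31 nt: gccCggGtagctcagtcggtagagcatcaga
T-start, 28 nt: gccTggGtagctcagtcggtagagcatc
T-start, 32 nt: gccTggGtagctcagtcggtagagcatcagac
main Lys-TTT, 31 nt: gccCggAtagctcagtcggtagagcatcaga
base 4 T with base 7 A, 31 nt: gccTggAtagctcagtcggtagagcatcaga
Lys-CTT, 32 nt: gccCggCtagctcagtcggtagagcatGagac

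Counted from 1 at the 5′ end, the C-start sequence differed from the main Lys-TTT sequence only by A7G over the shared length, and the T-start sequence by C4T and A7G, with the main sequence's base given first. Against the most abundant Lys-CTT fragment the T-start sequence showed T4C, G7C and C28G, with the T-start base first. The exact T-start and C-start sequences share with the main sequence the bases after position 7, C at base 28 included, and differ from it within the first 7. Among the members, 107 had C at base 28 and held 67209 of the 67486 counts, and 8 were too short to reach it. Another 4 members, with 10 counts, had C28G, the base of the Lys-CTT fragment, while 4 with 34 counts had C28T and 3 with 5 counts had C28A. The next sequences are the longest exact member of each start and a longer main fragment, with the anticodon positions 34 to 36 in capitals in the last one.
T-start, 35 nt: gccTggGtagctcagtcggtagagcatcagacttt
C-start, 36 nt: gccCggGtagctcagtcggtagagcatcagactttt
main Lys-TTT, 45 nt: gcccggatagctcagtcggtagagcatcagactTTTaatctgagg

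Among the 8 main fragments of 40 nt or more, 7 read TTT at bases 34 to 36, but these fragments held 10 counts in all. The members gave almost no reading of the anticodon. The 36 nt C-start fragment, with 2 counts, was the only member that reached base 36, and the longest T-start fragment stopped at base 35 with 1 count. No fragment with either start was longer than 36 nt. The tRNA gene of either start was not looked up, because no tRNA gene sequences were used here, so T-start and C-start are used below as names of sequences and not of genes.

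Within 25 to 36 nt and with bases 8 to 20 as in the main sequence, the T-start held 44679 counts and the C-start 22807, against 5686663 for the main start GCCCGGA and 690744 for the Lys-CTT start GCCCGGC. The start with T at base 4 and A at base 7 held 15449. Counting exact sequences only, the C-start amounted to 0.416% of the main sequence and the start with T at base 4 and A at base 7 to 0.274%. The T-start, which carries both differences at once, amounted to 0.785%, with 43059 exact counts. The product of the 2 single-difference shares, applied to the main sequence, would be 62.6 counts. That product takes the 2 differences as independent of each other, which was not tested.

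The T-start and C-start fragments differed in how many further differences they carried. Of the 111 T-start members, 11 were the exact sequence at 11 lengths and 100 had 1 further base difference, and those 100 held 1620 counts, or 3.63% of T-start counts. The main Lys-TTT fragments had 3.56% of their counts in such variants, over 263 fragments. The start with T at base 4 and A at base 7 had 66 variants, with 399 of its 15449 counts. Of the 15 C-start members, 12 were exact, 2 had 1 further difference and 1 had 2, and these 3 variants held 8 counts, or 0.0351%. All 3 carried C28G, so over bases 8 to 28 they read as the Lys-CTT fragment does. On the T-start, 1 variant with 2 counts had that difference. The near absence of variants was not particular to the C-start. With A at base 7, the starts with A or G at base 4 held 1868 and 940 counts, all exact, and 0 variants each.

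At 31 nt the comparison can be made base by base over bases 21 to 31, which the code rule leaves free. Of the 33 possible single-base differences there, 28 were counted on the T-start sequence, 1 on the C-start sequence and 33 on the main sequence. They summed to 919 counts or 3.99% of the exact T-start fragment, 1 count or 0.00766% of the exact C-start fragment, and 113870 counts or 3.67% of the exact main fragment. The most frequent was A23G, at 0.586% on the T-start and 0.614% on the main sequence, followed by A31G at 0.434% and 0.439% on the same pair of sequences. Over the 33 differences the T-start and main shares had Pearson's r = 0.99 and Spearman's rho = 0.95. Such values are a description only, because bases of the same molecule in the same libraries are not independent. All 87 differences outside bases 4 and 7 summed to 11.8% of the exact T-start and 15.2% of the exact main fragment. Their shares had a rank correlation of 0.92. Some differences before base 21 were lower on the T-start than on the main sequence. These included G6A at 0.638% against 2.89%, G6C at 0.0174% against 1.07% and G10A at 0.825% against 1.70%. Others were higher, such as C3A at 0.278% against 0.0410% and C11T at 0.617% against 0.376%. How many mismatches the authors' alignment allowed is not given in the sources used here, and its part in the missing C-start variants was not tested.

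**Figure D1:**
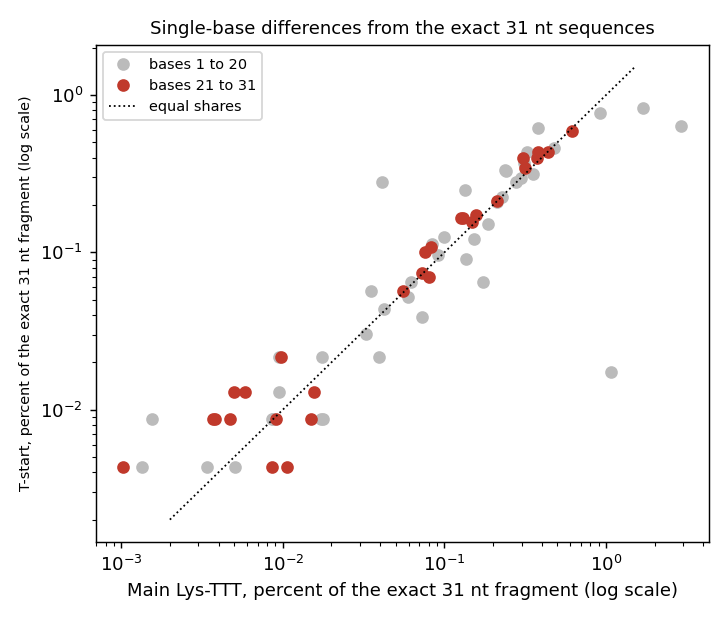
Each point is a single-base difference from the exact 31 nt sequence, outside bases 4 and 7, in all 40 libraries summed; the x axis gives its percent of the exact main Lys-TTT fragment and the y axis its percent of the exact T-start fragment, both on log scales, and only differences counted on the T-start sequence are drawn. Frequent differences at bases 21 to 31 lie near the line of equal shares, with A23G at 0.614% on the x axis and 0.586% on the y axis. Some rare ones there, with few T-start counts, lie off it on either side. A26T is at 0.00103% on the x axis and 0.00434% on the y axis, and A29T at 0.0107% and 0.00434%. Some points at earlier bases lie away from that line. G6A is at 2.89% on the x axis and 0.638% on the y axis, and C3A at 0.0410% and 0.278%.

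The 5 most abundant variant members were all T-start fragments of 31 nt. They were tRF-31-PYRP4PW31JHPB with A23G and 135 counts, tRF-31-PYRP4PW3FJHP0 with A31G and 100 counts, tRF-31-PYRP4PW3FJ0PB with T27C and 100 counts, tRF-31-PYRP4PW36JHPB with A21G and 92 counts, and tRF-31-PYRP4PW3FJH8B with A29G and 91 counts. Of all 126 members, 26 had a single count over the 40 libraries, 24 of them T-start and 2 C-start.

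The levels of the 31 nt members were next set beside other A-to-G differences of the main 31 nt fragment, since the C-start is itself the A7G form of that sequence. Summed over libraries, the C-start fragment stood at 0.421% of the main fragment, inside the range of the other 7 A-to-G forms, which ran from 0.236% for A14G to 0.614% for A23G. Library by library, the C-start fragment lay between 0.195% and 1.20% of the main fragment, and the mean of the other 7 forms between 0.184% and 1.03%. The ratio of the C-start fragment to that mean stayed between 0.947 and 1.28, with a median of 1.13. Both were lowest in libraries PA8914 at month 0 and PA8001 at month 9, and highest in PA8001 at month 6 and PA8835 at month 9.

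The T-start fragment of 31 nt did not follow those forms from library to library. It ranged from 0%, in PA8001 at month 0, to 1.88% of the main fragment, in PA8003 at month 15, with a median of 0.722%. Its ratio to the mean of the other A-to-G forms ran from 0 to 9.31, with a median of 1.72, and from 0.527 to 3.87 without that pair of libraries. Over the 40 libraries the C-start percent and the mean of the other forms had r = 0.99 and rho = 0.99, against r = -0.11 and rho = 0.02 for the T-start percent. Without the pair, the T-start values were r = 0.12 and rho = 0.16 over 38 libraries. These values share the main fragment as denominator, the libraries of an animal are not independent, and no p is given.

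**Figure D2:**
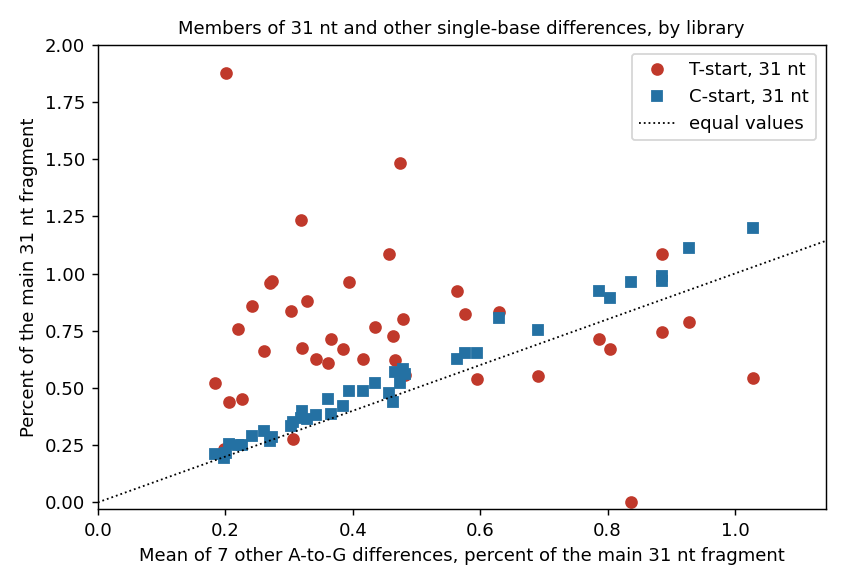
Each library appears as a red circle for the T-start and a blue square for the C-start 31 nt fragment, as percent of the main Lys-TTT 31 nt fragment on the y axis; the x axis gives the mean of 7 other A-to-G differences of that main fragment, in the same percent. The C-start squares run close to the line of equal values, most of them just above it, while the T-start circles spread from 0 to 1.88% with no such run.

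Fragment length showed a second difference between the starts. The 31 nt fragment was the most abundant of each, with 53.6% of T-start, 57.2% of C-start and 56.6% of main Lys-TTT counts. Fragments of 32 nt followed, with 23.4%, 24.6% and 24.5% of the counts of those starts in that order. The T-start held more counts at 28 nt, with 4.56% against 1.16% of C-start and 1.03% of main counts, and fewer at 33 nt, with 0.148% against 0.526% and 0.649%.

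Set against the main fragments of equal length, C-start counts stayed between 0.370% and 0.454% at each length from 28 to 32 nt. T-start counts amounted to 3.49% at 28 nt, 1.28% at 29 nt, 0.799% at 30 nt, 0.744% at 31 nt and 0.749% at 32 nt, and to 0.179% at 33 nt. The ratio for the T-start thus differed with length and that for the C-start much less.

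The length differences were tested on means of each animal's 5 libraries with a two-sided exact sign-flip permutation test over 8 animals, whose smallest possible p is 0.0078, and adjusted over 5 tests that were added after the sequences were read. Mean T-start length was 30.9 ± 0.208 nt, against 31.1 ± 0.0950 nt for the main fragments (SD, n = 8), a difference of -0.166 nt seen in 8 of 8 animals (exact p = 0.0078, adjusted 0.0195). Against C-start fragments, whose mean was 31.0 ± 0.0870 nt, the T-start difference was -0.149 nt, with shorter means in 7 of 8 animals (exact p = 0.0156, adjusted 0.0260). That call is lost when any of 6 of the animals is left out, with an adjusted exact p of 0.0521 in each case. C-start and main fragments differed by -0.0172 ± 0.0207 nt (SD of the difference, n = 8, exact p = 0.0547, adjusted 0.0684).

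The 28 nt fragment tRF-28-PYRP4PW3FJDD made up 3.75 ± 3.33% of T-start counts, against 0.990 ± 0.799% for its counterpart among main fragments (SD, n = 8), and its share was higher in 8 of 8 animals (exact p = 0.0078, adjusted 0.0195). C-start fragments of 28 nt made up 1.19 ± 1.10% and missed the threshold against main fragments (exact p = 0.164, adjusted 0.164). Single libraries stood out. In PA8872 at month 15 the 28 nt share was 27.4% of T-start, 15.9% of C-start and 11.6% of main counts, the highest of all 40 libraries for each. PA8914 at month 0 came next, with 15.6%, 2.05% and 2.48% for the same starts, and at months 3, 6 and 9 its T-start share lay between 9.01% and 11.2%, but at month 15 it was 0.301%.

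**Figure D3:**
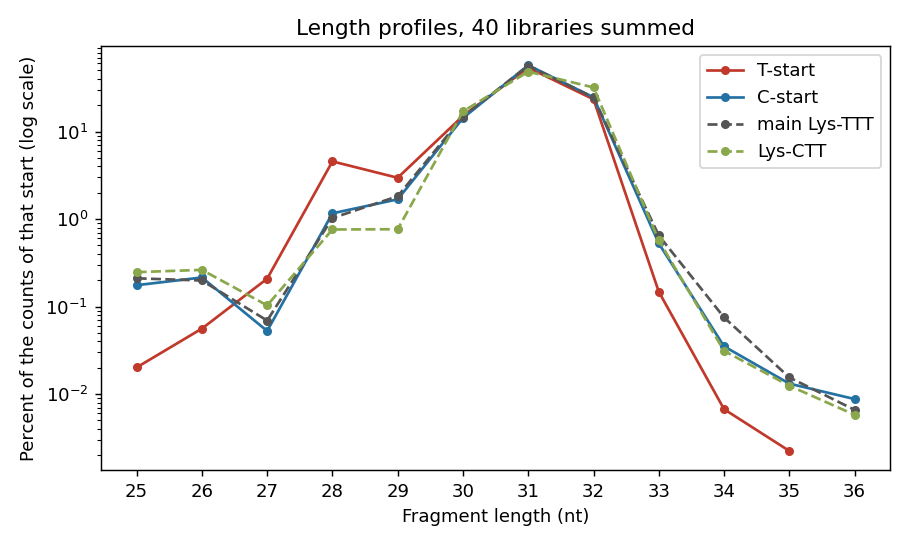
The y axis, on a log scale, gives the percent of each start's counts found at each fragment length (x axis, nt), with 40 libraries summed; red and blue lines are T-start and C-start fragments, grey and green dashed lines main Lys-TTT and Lys-CTT fragments. The T-start line lies above the others at 28 nt (4.56%) and below them at 33 nt (0.148%).

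Just outside the length limits there was little of either start. At 24 nt the T-start had 0 counts and the C-start 4, against 9 and 40 at 25 nt, and at 37 nt both had 0. Fragments that lack the first base were also rare, at 0.0836% of the exact T-start, 0.0658% of the exact C-start and 0.0706% of the exact main counts.

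Levels are given as counts per 1000000 (CPM) of a library's total scaled by the trimmed mean of M-values (TMM). Library totals ran from 198840 to 6245450 counts, and 3 counts corresponded to 0.568 to 7.82 CPM. PA8001 at month 0 had the lowest total, with 9 T-start counts, all of 32 nt, and 79 C-start counts. PA8003 at month 15 had the lowest TMM factor, 0.458, against a highest of 1.93 in PA8001 at month 0, and it had the highest levels of T-start and C-start sums, at 3417 and 359 CPM, and of the main fragments, at 176245 CPM. That the C-start sum was highest there depends on the scaling. Before scaling, PA8003 at month 15 had 632 C-start counts of 3847831, against 1001 of 2004265 in PA8915 at month 0. As a share of main counts, the C-start of PA8003 at month 15 was the lowest of the 40 libraries, at 0.204%.

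Summed T-start levels had medians of 231, 386, 256, 271 and 452 CPM at months 0, 3, 6, 9 and 15. They ran from 23.5 to 358 CPM at month 0, 103 to 540 at month 3, 163 to 577 at month 6, 140 to 496 at month 9 and 169 to 3417 at month 15. The months overlapped throughout, and at month 15 the next library below PA8003 stood at 662 CPM. Over all libraries the highest T-start level was 146 times the lowest. That fold was 33.0 without PA8001 at month 0, 28.2 without PA8003 at month 15 and 6.40 without both.

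Summed C-start levels had medians of 176, 175, 171, 157 and 209 CPM at the same months. They ran from 114 to 335 CPM at month 0, 97.9 to 353 at month 3, 106 to 299 at month 6, 135 to 281 at month 9 and 166 to 359 at month 15. These ranges overlapped too. After TMM scaling the highest C-start level was 3.66 times the lowest, or 3.61 times without both of those libraries. The main fragments, with medians between 29527 CPM at month 6 and 48408 CPM at month 15, spanned 9.63 times, and 4.92 times without PA8003 at month 15.

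**Figure D4:**
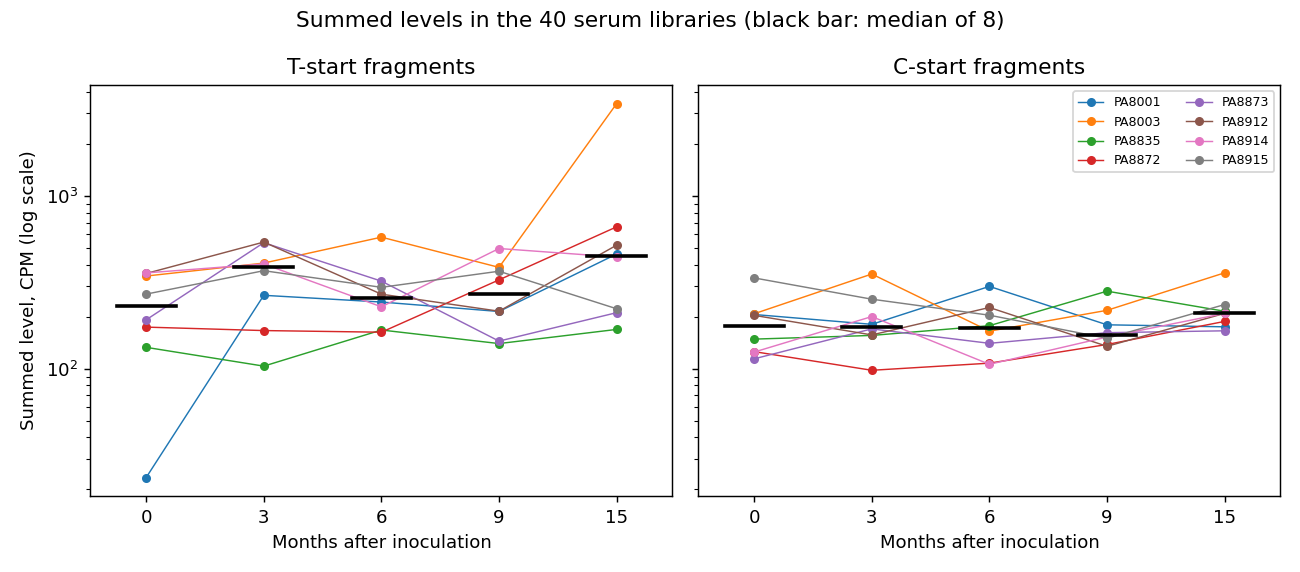
Summed level in CPM (log scale) of T-start fragments on the left and C-start fragments on the right, by months after inoculation; each coloured line is one of 8 animals and black bars are medians. T-start levels span 23.5 to 3417 CPM, with PA8001 at month 0 lowest and PA8003 at month 15 highest, while C-start levels span 97.9 to 359 CPM.

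Changes with time were tested with edgeR's quasi-likelihood test on all 40 libraries and 2447 fragments that passed a filter on low counts, with the animal as a block and Benjamini-Hochberg adjustment over all 2447. Of the 126 members, 9 passed the filter: the exact T-start fragments of 28 to 32 nt and the exact C-start fragments of 29 to 32 nt. The other 117 were too low to test. The comparisons against month 0 share those 8 libraries, and those of month 15 share the month 15 libraries.

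At months 3, 6 and 9 against month 0, edgeR called 0 of the 9 members, and 0% of all tested fragments, at an adjusted p under 0.05. At an unadjusted p under 0.05 it counted 1, 0 and 0 members, and DESeq2 and limma-voom also called 0 members in each. The 1 member was tRF-31-PYRP4PW3FJHPB, the most abundant, whose estimate at month 3 over month 0 was 0.84 on the log2 scale (SE 0.411, adjusted p = 0.999) with higher CPM in 8 of 8 animals. Median log2 changes of the 9 members were 0.22, 0.14 and 0.08 at months 3, 6 and 9 over month 0, against 0.10, 0.01 and 0.06 over all tested fragments.

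At month 15 against month 0, 1 of the 9 members was called, and it was higher. In the same direction 2.21% of all tested fragments were called. The called member was tRF-32-PYRP4PW3FJHP1, the T-start fragment of 32 nt. It had 29.2 CPM at its lowest, a median of 100.1 and 2161 at its highest at month 15, against 23.5, 43.2 and 71.0 CPM at month 0. The 2 months overlapped, 7 of 8 animals were higher at month 15, and the highest value was that of PA8003, with 135 CPM in the next library.

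The edgeR estimate for tRF-32-PYRP4PW3FJHP1 at month 15 over month 0 was 1.77 on the log2 scale (SE 0.459, adjusted p = 0.0370). Without PA8003 it was 0.98 (edgeR adjusted p = 0.169), and without PA8001 it was 1.76 (edgeR adjusted p = 0.0653). Leaving out PA8873, PA8912 or PA8914 took the adjusted p above the threshold, to 0.105, 0.0518 and 0.161, with log2 estimates of 1.81, 1.92 and 1.79. A fit without the animal block gave 2.93 (edgeR adjusted p = 0.00588).

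The other T-start fragments had positive estimates that did not pass. The fragment of 31 nt, tRF-31-PYRP4PW3FJHPB, ran from 71.2 to 1039 CPM with a median of 243 at month 15, against 0 to 211 with a median of 123 at month 0. Its log2 estimate was 1.20 (SE 0.421, edgeR adjusted p = 0.122), and DESeq2 gave it an adjusted p of 0.0463. Estimates at 28, 29 and 30 nt were 1.15, 1.00 and 0.47 with edgeR adjusted p-values of 0.420, 0.267 and 0.506. DESeq2 gave 1.18, 1.04 and 0.45 at these lengths, and limma-voom 0.08, 0.47 and 0.33. The 28 nt medians were 3.86 CPM at month 15 and 3.61 CPM at month 0, with 4 of 8 animals higher. At month 15 PA8872 stood at 182 CPM and the next library at 10.2 CPM.

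Among C-start fragments tRF-32-PSRP4PW3FJHP1, of 32 nt, ran from 39.97 to 213 CPM with a median of 61.2 at month 15, against 20.3 to 102 with a median of 39.98 at month 0. The months overlapped, and its log2 estimate of 0.81 (SE 0.296, edgeR adjusted p = 0.134) did not pass. The fragment of 31 nt, tRF-31-PSRP4PW3FJHPB, had a median of 105 CPM at month 15, against 89.2 CPM at month 0, and a log2 estimate of 0.06 (SE 0.234, edgeR adjusted p = 0.899). At 30 and 29 nt the estimates were -0.18 and -0.04, with adjusted p-values of 0.722 and 0.975.

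Beside these stood the main Lys-TTT fragments, none of them called, whose log2 estimates at month 15 over month 0 were 1.20, 0.17, -0.26, 0.19 and 0.82 at 28 to 32 nt. The T-start estimates at those lengths were 1.15, 1.00, 0.47, 1.20 and 1.77, so that at 28 nt the main fragment stood at least as high. The C-start estimates at 29 to 32 nt were -0.04, -0.18, 0.06 and 0.81. Over all 409 tested fragments of 32 nt, whatever their tRNA, 364 had a positive estimate in that comparison, with a median of 0.51, and 5 were called higher and 0 lower.

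**Figure D5:**
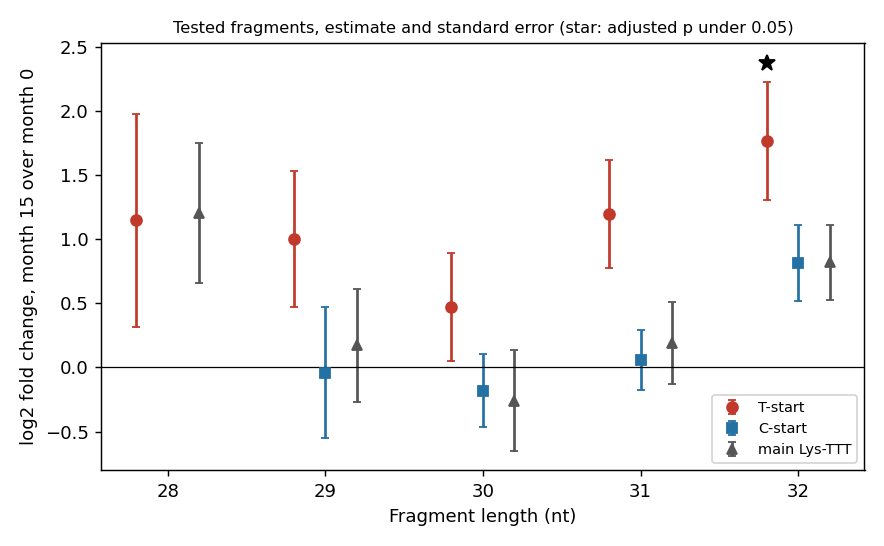
Log2 fold change of month 15 over month 0 (y axis) against fragment length in nt (x axis) for T-start (red), C-start (blue) and main Lys-TTT (grey) exact fragments that were tested; points are edgeR estimates, bars their standard errors and the star marks an adjusted p under 0.05. Only the T-start fragment of 32 nt, at 1.77, carries a star, and the C-start and main points lie close to each other at each shared length.

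Against months 3, 6 and 9, month 15 had 2 of the 9 members called higher and 0 lower in each comparison, with all tested fragments called higher at 7.19%, 17.0% and 18.2%. The 2 were in each case the T-start and the C-start fragment of 32 nt. For tRF-32-PYRP4PW3FJHP1 the edgeR log2 estimates at month 15 over months 3, 6 and 9 were 1.82, 2.15 and 1.82, with adjusted p-values of 0.0281, 0.00494 and 0.0107. For tRF-32-PSRP4PW3FJHP1 they were 0.98, 1.11 and 0.93, with adjusted p-values of 0.0389, 0.00854 and 0.0207.

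Without PA8003 the estimates of tRF-32-PYRP4PW3FJHP1 at month 15 over months 3, 6 and 9 were 1.13, 1.49 and 1.09 (edgeR adjusted p = 0.0514, 0.0214 and 0.0453), so the call against month 3 was lost. Leaving out PA8873 or PA8914 lost that call too, with estimates of 1.95 and 1.85 (edgeR adjusted p = 0.0910 and 0.0754). Without PA8003 the estimates of tRF-32-PSRP4PW3FJHP1 were 0.92, 0.91 and 0.70 (edgeR adjusted p = 0.0545, 0.0404 and 0.0945). Its call against month 3 was lost without any of PA8003, PA8872, PA8873, PA8914 and PA8915, and that against month 9 without PA8003 or PA8915.

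The main fragment of 32 nt, tRF-32-PS5P4PW3FJHP1, was called higher in the same comparisons, with log2 estimates of 0.96, 1.42 and 1.05 and edgeR adjusted p-values of 0.0392, 0.00447 and 0.0124. Without PA8003 they were 0.59, 1.08 and 0.70 (edgeR adjusted p = 0.133, 0.0217 and 0.0731). Of 409 tested fragments of 32 nt, 117, 156 and 183 were called higher at month 15 than at months 3, 6 and 9, and 2, 5 and 14 lower. When PA8001 and PA8003 were dropped at month 15 only, 0, 2 and 0 members were called against months 3, 6 and 9, and the estimates of tRF-32-PYRP4PW3FJHP1 were 1.04, 1.37 and 1.11.

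Whether the members moved apart from the main Lys-TTT fragments was tested on log2 ratios within each library, with exact sign-flip tests over 8 animals adjusted over 28 tests that were added after the sequences were read. The T-start to main ratio averaged -6.79 ± 0.698 at month 15, against -7.77 ± 1.06 at month 0 (SD, n = 8), a difference of 0.98 on the log2 scale seen in 8 of 8 animals (exact p = 0.0078, adjusted 0.109). For the 32 nt fragments alone the difference was 0.84, again in 8 of 8 animals (exact p = 0.0078, adjusted 0.109). At months 3, 6 and 9 over month 0 the T-start to main ratio differed by 0.65, 0.81 and 0.50, each in 7 of 8 animals, with exact p-values of 0.0391, 0.0234 and 0.0391 (adjusted 0.182 each). None of the 28 passed after adjustment. With 8 animals 0.0078 is the smallest possible p, so none of the 28 could pass unless several had low values together. The adjusted values therefore cannot decide whether the T-start to main ratio changed.

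Without PA8001 the differences at months 3, 6 and 9 over month 0 were 0.34, 0.46 and 0.36 (exact sign-flip test, n = 7, adjusted p = 0.365, 0.328 and 0.365). PA8001 at month 0, with its 9 T-start counts, had a T-start to main ratio of -10.2 on the log2 scale, below the next lowest at -8.44. Without PA8001 and PA8003 the month 15 over month 0 difference was 0.49 (exact sign-flip test, adjusted p = 0.292), and for the 32 nt fragments alone 0.45 (adjusted exact p = 0.292). Leaving out animals raises the smallest possible exact p, which is 0.0156 with 7 animals and higher still with fewer. These adjusted values therefore cannot decide whether the T-start to main ratio changed either. The C-start to main ratio differed by -0.04 between months 15 and 0 (SD of the difference 0.770, n = 8, exact p = 0.914, adjusted 0.977), with 4 animals higher and 4 lower.

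Composition was tested with 5 measures in 7 month comparisons, adjusted over 35 exact sign-flip tests, and none passed. The smallest possible p with 8 animals is 0.0078, so a single low value could not pass over 35 tests. The C-start share of member counts averaged 33.9 ± 15.6% at month 15, against 47.1 ± 19.6% at month 0 (SD, n = 8, exact p = 0.156, adjusted 0.479). The difference of -13.2 percentage points became -6.20 without PA8001 and -2.54 without PA8001 and PA8003. Its extremes were 9.50% in PA8003 at month 15 (95% Wilson interval 8.82 to 10.2%) and 89.8% in PA8001 at month 0 (81.7 to 94.5%). Mean member length was 31.1 ± 0.376 nt at month 15, against 31.0 ± 0.343 nt at month 0 (exact p = 0.570, adjusted 0.641), and the difference lay between 0.00876 and 0.224 nt when each animal was left out in turn. Variants made up 2.82 ± 0.935% of member counts at month 15, against 2.02 ± 1.07% at month 0 (exact p = 0.102, adjusted 0.395), a difference of 0.796 percentage points, or 0.518 without PA8001.

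The log2 ratio of member to Lys-CTT counts averaged -2.60 ± 0.783 at month 15, against -3.43 ± 0.734 at month 0 (SD, n = 8), higher in 7 of 8 animals (exact p = 0.0469, adjusted 0.273). Against month 9, where it averaged -3.48 ± 0.541, the difference was 0.88 in 7 of 8 animals (exact p = 0.0234, adjusted 0.273), and 0.55 without PA8001 and PA8003. Members were longer than the other fragments of 25 to 36 nt by 0.459 ± 0.218 nt at month 15, against 0.732 ± 0.264 nt at month 0 (exact p = 0.0469, adjusted 0.273), a difference of -0.273 nt, or -0.157 nt without PA8001 and PA8003.

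The exact members below the filter had few counts over the 40 libraries. The T-start fragments of 25, 26 and 27 nt had 9, 25 and 91 counts as exact sequences and those of 33, 34 and 35 nt had 60, 3 and 1. The C-start fragments of 25, 26, 27 and 28 nt had 40, 49, 12 and 265 counts, and those of 33, 34, 35 and 36 nt had 120, 8, 3 and 2. The C-start fragment of 28 nt, tRF-28-PSRP4PW3FJDD, peaked at 29.9 CPM in PA8872 at month 15, where the T-start fragment of that length had its highest value of 182 CPM.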

How the data were processed

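Counts of 40 serum libraries were read as the authors deposited them: 1 table of whole-number counts per fragment, with a second table of the fragment sequences in the same order. Per the labels' protocols, RNA with an integrity number of at least 7 was ligated to adapters, tagged with molecular identifiers at cDNA synthesis and sequenced on a NovaSeq X; R 4.5.0, edgeR and limma are named in the submitters' processing notes. The labels name no aligner, reference or mismatch limit and do not say whether identifiers were collapsed (not given in the sources used here), so intervals and the floor of 3 counts cover counting error only. Of 60201 lines, 1614 without a fragment code, with 0.0805% of counts, were left out.

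Counts were fitted with edgeR 4.0.16 in R 4.3.3 (quasi-likelihood, robust, TMM, filterByExpr with a minimum count of 10, animal as block, all 40 libraries); the script was checked on simulated data. Alternatives used DESeq2 1.42.0 and limma 3.58.1. Single values were compared with exact sign-flip permutation tests in Python 3.11.15, pairing libraries by the animal in the labels: deviations from month means correlated at 0.191 between libraries of an animal and -0.0254 between animals. Differences from the exact sequence were counted against the most frequent base at each position. No pair of libraries had identical counts. Each animal gave 1 library a month, so spreads are between animals.

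The rule for the members, the lists and the tests were set with earlier results of these data known, although the rule itself uses only the fragment code and length. Named fragments are the most abundant member of each start and length, the 5 most abundant other members, every member called at month 15 against month 0, and up to 3 called members in each direction in the other comparisons. No cell type markers were used, since serum fragments name no cell type.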

Additional observations from a re-analysis of the deposited data

Results flagged for a closer look

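In 100 groups of 8 libraries (20 measures at 5 months), 21 values stood apart from the other 7 by Dixon's test at its 95% critical value. For normally distributed values chance gives about 1 in 20 groups, and the measures overlap. Most of the values that stood apart were high CPM values, whose distribution was not tested, so the number found cannot be judged against that rate.

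PA8003 gave several of them. Its T-start sum was 577 CPM at month 6 and 3417 CPM at month 15, and its C-start sum 359 CPM at month 15, scaled with a TMM factor of 0.458. Its tRF-30-PYRP4PW3FJHP stood at 155 CPM at month 6, and its tRF-31-PYRP4PW3FJHPB at 324 CPM at month 6 and 1039 CPM at month 15. At month 15 its tRF-32-PYRP4PW3FJHP1 stood at 2161 CPM and its tRF-32-PSRP4PW3FJHP1 at 213 CPM.

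PA8914 was apart in the shorter fragments: tRF-28-PYRP4PW3FJDD at 55.9 CPM at month 0 and 44.7 CPM at month 9, tRF-29-PYRP4PW3FJF2 at 41.4 CPM at month 0 and 29.3 CPM at month 9, and tRF-29-PSRP4PW3FJF2 at 12.3 CPM at month 0 and 6.25 CPM at month 9. PA8872 had tRF-28-PYRP4PW3FJDD at 182 CPM at month 15, where the next library had 10.2 CPM.

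PA8001 at month 0 had a C-start share of 89.8%, from 88 member counts, and a T-start to main ratio of -10.2 on the log2 scale, from 9 T-start and 10434 main counts. At month 6 its tRF-32-PSRP4PW3FJHP1 stood at 81.6 CPM. PA8915 at month 0 had a C-start sum of 335 CPM and tRF-31-PSRP4PW3FJHPB at 199 CPM. PA8835 at month 9 had tRF-32-PSRP4PW3FJHP1 at 86.9 CPM.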

How the results depend on the processing

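At months 3, 6 and 9 against month 0, every alternative run called 0 members, as did the fit reported. The counts of members called at month 15 moved. With library totals alone they were 0, 1, 1 and 1 against months 0, 3, 6 and 9, where the reported counts are 1, 2, 2 and 2. The member called was tRF-32-PYRP4PW3FJHP1 each time, so without TMM scaling tRF-32-PSRP4PW3FJHP1 was called in none of these comparisons. With no filter on low counts the counts of members called were 0, 1, 2 and 2, and tRF-32-PSRP4PW3FJHP1 was called in none of them (adjusted p = 0.955, 0.752 and 0.846 against months 3, 6 and 9). Beside tRF-32-PYRP4PW3FJHP1, the second member called was then tRF-32-PYRP4PW3FJH81, with 48 counts, against month 6 and tRF-32-PYRP4PW3FJHPM, with 54 counts, against month 9. With 0 members called at month 15 against month 0 stood limma-voom, the fit of only those months, the fit that dropped PA8001 and PA8003 at month 15 only, and the fit without the month 0 library of PA8001. DESeq2 called 2, adding tRF-31-PYRP4PW3FJHPB. The fits of only the months compared, and those that dropped that pair, called 0 members against month 3 and 0 against month 9. Leaving out each animal in turn gave 0 to 1, 0 to 2 and 1 to 2 members called against months 0, 3 and 9; both members called against month 6 stayed called. Without the replicate block, 1 member was called against month 3, and no other count of members called changed; the log2 estimate of tRF-32-PYRP4PW3FJHP1 was then 2.93, 2.79, 3.16 and 3.04 against months 0, 3, 6 and 9. The cause of these moves was not tested.

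The C-start to main ratio at month 15 over month 0 had no stable sign: leaving out each animal gave -0.19 to 0.16 on the log2 scale for all lengths and -0.12 to 0.20 at 32 nt. The values above and below 0 include 0.16 without PA8001, 0.07 without PA8003 and 0.31 without both, and at 32 nt -0.12 without PA8835, -0.01 without PA8872 and -0.05 without PA8873. Mean length of T-start minus C-start fragments ran from -0.174 to -0.117 nt when each animal was left out, and C-start minus main from -0.0229 to -0.0124 nt. The 28 nt share of C-start minus main fragments ran from 0.0782 to 0.261 percentage points; without PA8914 both of these last differences passed the threshold. At month 15 over month 0, the 5 composition measures kept their direction and missed the threshold under every alternative run, though several changed in size as given above. These added ratios, lengths and 28 nt shares, and their alternatives, were chosen after seeing the data. Depth limits the T-start values of PA8001 at month 0 most, at 9 counts.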
